A study of Mus musculus with 6 samples.

Results

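The ATP-binding cassette (ABC) transporter genes were compared between OS3 glial cells carrying H3.3K27M (IG27 cells) and OS3 cells carrying an empty vector (WT cells). Members were all genes whose symbol has the form Abc, a subfamily letter from a to g, a number and, in some, a further letter. Probes were assigned to them through the RefSeq accession printed for each probe in the array files. The rule found 50 genes, measured by 82 probes, among 22907 named genes on the array, and 36 of the 50 were bright enough in at least 1 group to be tested.

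OS3 cells are glial cells taken from newborn C3H/HeN mice (the labels add that the brain was male) and immortalized with SV40. Both groups therefore carry SV40 and were grown the same way for 2 days in MEM-alpha with GlutaMAX, 10% FBS, insulin and D-glucose. IG27 cells had received pcDNA3.1(+)-H3f3a-K27M and were drug-selected as clones, and WT cells had received the vector alone, so differences between individual clones and the effect of the transgene cannot be told apart. Each group had 3 arrays of total RNA, described as separate dishes, on 1 slide of 1-color mouse arrays, so that P values measure the spread between dishes of these cultures. The astrocyte filament gene *Gfap*, a defining marker of the labelled cell type, was well above background throughout, at a mean normalized log2 intensity of 6.64 in WT and 5.57 in IG27 cells. Its 2 tested probes disagreed: this brighter one was called lower in IG27 cells (-1.07) and the other higher (0.19). The other astrocyte markers went both ways: *Slc1a3*, dim on all WT arrays, was at least 20.6-fold higher in IG27 cells, *S100b* and *Aldoc* were higher by 4.93 and 2.86 on the log2 scale, *Slc1a2* and *Aldh1l1* were lower (-1.03 and -1.72), *Aqp4* was not called and *Gja1* was not tested.

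ABC proteins use the energy of ATP to move lipids, drugs, peptides, metabolites and metal cofactors across membranes. A full transporter has a pair of ATP-binding cassettes and a pair of membrane domains, either in 1 chain or in 2 chains that pair up. The ABCA proteins move mainly lipids; ABCB proteins include the drug pump P-glycoprotein, the phosphatidylcholine floppase of bile and a set of mitochondrial transporters; ABCC proteins export conjugates and nucleotides or, in a few cases, regulate or form channels; ABCD proteins carry fatty acyl-CoA into peroxisomes; ABCE and ABCF proteins have no membrane part and act on the ribosome; and ABCG proteins are paired chains that export sterols or drugs. In the brain, ABCB1 and ABCG2 are best known at the blood-brain barrier, where they keep drugs out.

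Gene starts of the members with the largest increases are shown first, because their genes lie close together or are read from more than 1 start. Sequences are the 250 bases before each RefSeq start in the mouse build GRCm38.p6, 5′ to 3′ on the strand of the gene, with each CpG in capitals. *Abca5*, *Abca8a*, *Abca8b* and *Abca9* are neighbors on chromosome 11 and all lie on the minus strand; *Abca6*, which lies between *Abca9* and *Abca5*, had no entry in the sequence table used. The sequence before *Abca5* was chr11:110337717-110337966, that before *Abca9* chr11:110168154-110168403, that before *Abca8a* chr11:110095938-110096187 and that before *Abca8b* chr11:109995846-109996095.
Abca5: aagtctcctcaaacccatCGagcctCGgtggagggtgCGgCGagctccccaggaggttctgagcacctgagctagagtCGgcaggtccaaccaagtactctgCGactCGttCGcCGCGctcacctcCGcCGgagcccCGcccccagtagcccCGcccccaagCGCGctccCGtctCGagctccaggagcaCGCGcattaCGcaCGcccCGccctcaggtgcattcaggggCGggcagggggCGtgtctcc
Abca9: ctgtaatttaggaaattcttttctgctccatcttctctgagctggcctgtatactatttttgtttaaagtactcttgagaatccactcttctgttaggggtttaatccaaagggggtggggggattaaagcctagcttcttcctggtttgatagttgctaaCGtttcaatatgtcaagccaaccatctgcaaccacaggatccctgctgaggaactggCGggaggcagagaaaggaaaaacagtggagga
Abca8a: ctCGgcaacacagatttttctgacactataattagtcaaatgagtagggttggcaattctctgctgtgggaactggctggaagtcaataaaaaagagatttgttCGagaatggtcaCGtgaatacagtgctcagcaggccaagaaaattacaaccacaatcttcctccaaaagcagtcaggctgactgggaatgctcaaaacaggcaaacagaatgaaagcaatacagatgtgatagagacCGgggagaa
Abca8b: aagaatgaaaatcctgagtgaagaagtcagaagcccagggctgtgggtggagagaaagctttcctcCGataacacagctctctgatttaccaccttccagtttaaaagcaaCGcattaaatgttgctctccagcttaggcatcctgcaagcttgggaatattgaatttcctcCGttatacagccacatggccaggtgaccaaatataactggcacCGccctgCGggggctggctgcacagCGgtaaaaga
The 4 sequences differed in CpG content: the one before *Abca5* held 25 CpG, whereas those before *Abca8b*, *Abca8a* and *Abca9* held 6, 4 and 2. Over all 32851 such sequences of mouse genes the lower quartile, median and upper quartile were 2, 6 and 16 CpG. Searched on both strands, only that before *Abca8a* held the E-box CACGTG, 136 bases before the start, a motif found in 6.02% of all the sequences. The GC box GGGCGG, found in 32.7% of all the sequences, and the TATA box TATAAA, found in 12.4%, were searched in the same way. GGGCGG occurred 4 times before *Abca5* and 1 time before *Abca8b*, and none of the 4 sequences held TATAAA.

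*Abcg2*, on the plus strand of chromosome 6, has 3 RefSeq starts, and the probe does not tell which was used. The sequences before them were chr6:58584283-58584532, chr6:58596422-58596671 and chr6:58640296-58640545.
Abcg2 first start: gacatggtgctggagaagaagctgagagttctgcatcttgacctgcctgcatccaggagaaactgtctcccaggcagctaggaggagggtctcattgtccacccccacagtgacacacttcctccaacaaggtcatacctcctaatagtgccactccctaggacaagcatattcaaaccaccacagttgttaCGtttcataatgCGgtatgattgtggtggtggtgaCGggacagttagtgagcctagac
Abcg2 middle start: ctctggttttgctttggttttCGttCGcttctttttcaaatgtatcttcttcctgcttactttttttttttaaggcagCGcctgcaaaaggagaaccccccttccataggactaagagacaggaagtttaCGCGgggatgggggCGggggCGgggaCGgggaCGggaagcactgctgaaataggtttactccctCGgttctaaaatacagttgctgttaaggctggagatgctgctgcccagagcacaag
Abcg2 last start: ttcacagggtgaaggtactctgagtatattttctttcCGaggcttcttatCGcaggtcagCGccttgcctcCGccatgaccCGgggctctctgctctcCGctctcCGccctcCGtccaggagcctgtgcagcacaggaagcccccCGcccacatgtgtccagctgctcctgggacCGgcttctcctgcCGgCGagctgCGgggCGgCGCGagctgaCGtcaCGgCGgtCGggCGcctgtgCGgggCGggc
The first held 3 CpG, the middle one 10 and the last one 23. The last is thus the only one of the 3 above the upper quartile of all the sequences. The middle sequence held GGGCGG 2 times and the last one 4 times, and none of the 3 held TATAAA or CACGTG.

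The first question was how many members differed between IG27 and WT cells. Values are log2 intensities relative to the 75th percentile of each array, and a gene was called when limma gave an adjusted P under 0.05 over all 14894 genes tested. Of the 36 members tested, 17 were called higher in IG27 cells, which is 47.2%, beside 30.5% of all genes tested. Another 12 were called lower, or 33.3%, beside 40.0% of all genes, and 7 were not called. The 3 WT and 3 IG27 values did not overlap for 30 members, or 83.3%, beside 75.7% of all genes. Since 70.5% of all genes were called in one direction or the other, each call of a member below is given with the size of the change. A change of at least 2-fold was reached by 9 of the 36 members called higher, beside 11.4% of all genes, and by 4 called lower, beside 11.7%. Of the 9, 6 passed the brightness filter through the IG27 arrays alone, and of the 4, 1 through the WT arrays alone. Among the 29 members bright on every complete array, 11 were called higher and 11 lower. Under that filter, 3952 of all 13542 genes tested were called higher and 5627 lower. The median log2 fold change of the members was 0.11, and that of all genes was -0.07.

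**Figure D1:**
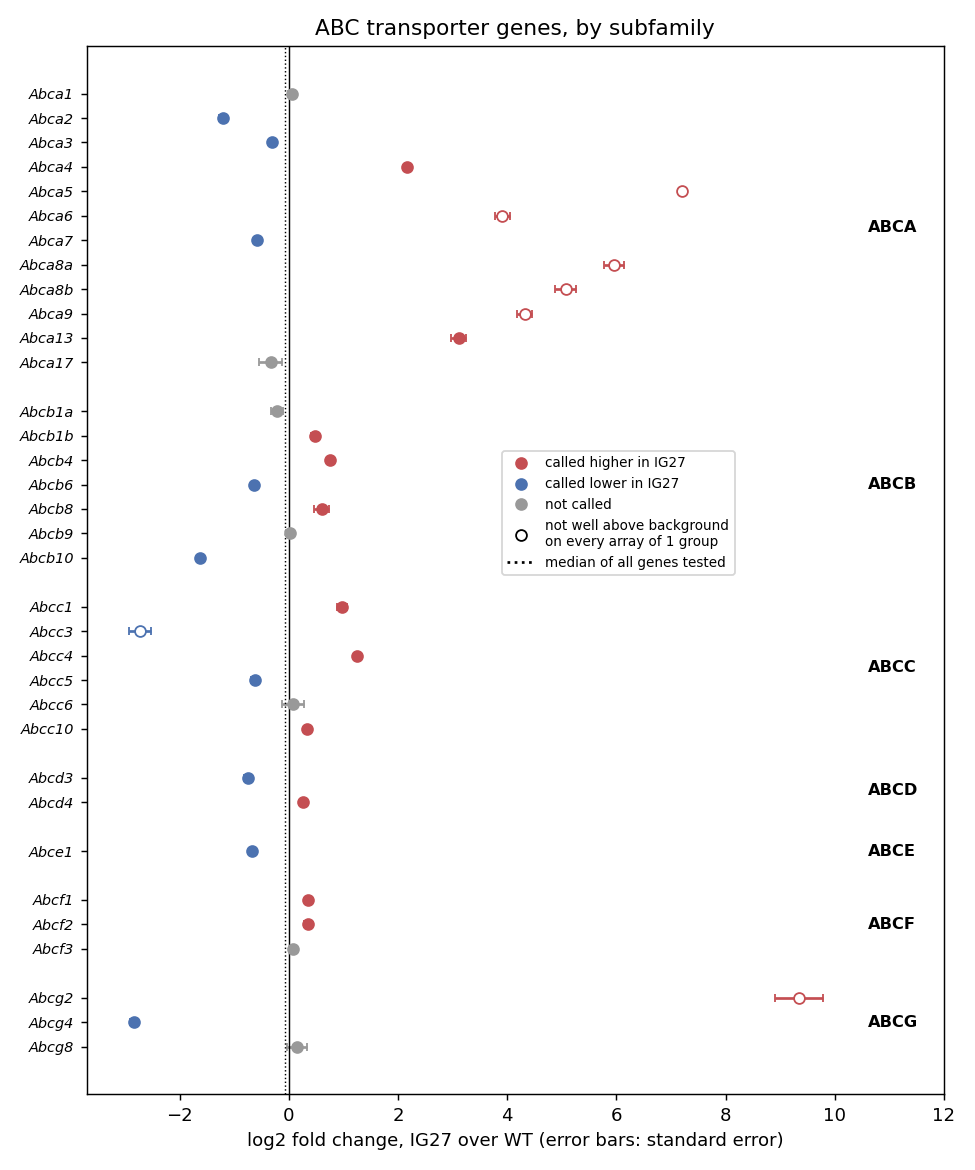
Log2 fold change of IG27 over WT cells for 34 of the 36 ABC transporter genes tested (x axis; bars, standard error; 3 arrays per group), grouped by subfamily, with red for called higher, blue for called lower and gray for not called. Open circles mark genes that 1 group's complete arrays did not all show well above background, and the largest increases, of *Abcg2* and of 5 ABCA genes, are all open circles.

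By subfamily, in ABCA, 7 of 12 tested genes were called higher and 3 lower, with a median log2 fold change of 2.64 and a range from -1.21 to 7.20. In ABCB, 3 of 8 were called higher and 3 lower, with a median of -0.10. ABCC had 3 of 6 higher and 2 lower (median, 0.20). Among the small subfamilies, ABCD had 1 of 3 higher and 2 lower, ABCE its single gene lower, ABCF 2 of 3 higher and none lower, and ABCG 1 of 3 higher and 1 lower. The ABCA median depended on dim genes: among probes well above background on every complete array it was -0.31, because the 5 genes with the largest ABCA increases were then left out. Of all genes, 30.5% were called higher and 40.0% lower, and whether subfamilies differ was not tested.

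**Figure D2:**
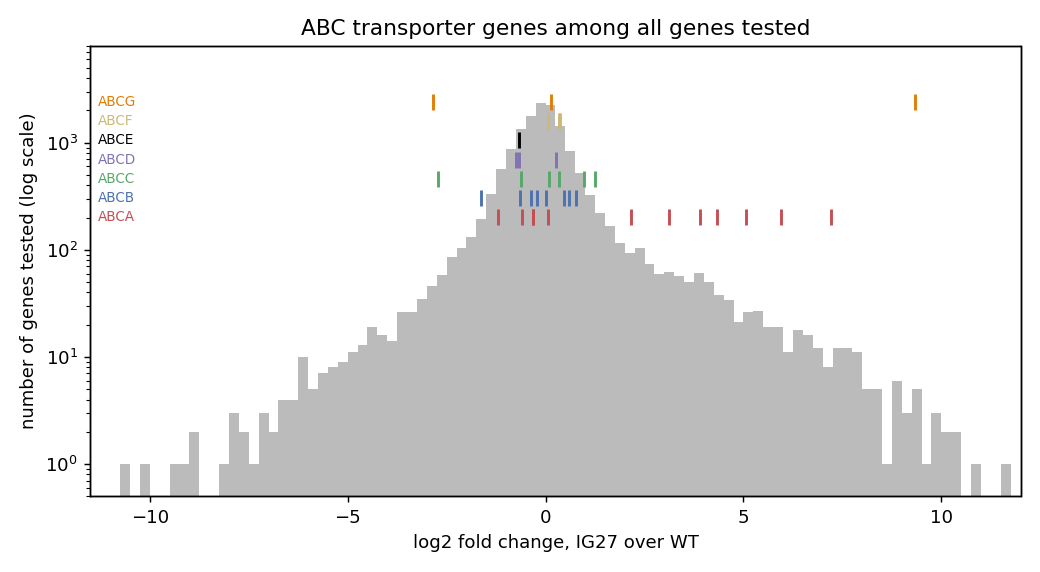
Log2 fold changes of all 14894 genes tested (gray bars; number of genes on a log scale) with each ABC transporter gene as a vertical tick, in 1 row per subfamily. The ABCA ticks reach 7.20 on the right, and the outermost ticks on both sides, at 9.35 and -2.83, are *Abcg2* and *Abcg4*.

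*Abcg2*, the breast cancer resistance protein, which exports drugs, urate and porphyrins and pairs with itself, had the largest fitted log2 fold change of all members. Its normalized log2 intensity was -5.99, -6.57 and -4.79 on the WT arrays and 3.72, 3.45 and 3.51 on the IG27 arrays. All IG27 values lay far above all WT values, and 1 of the 3 WT arrays was well above background, so that the size of the change rests in part on dim spots. The log2 fold change was 9.35 (SE, 0.434; limma adjusted P = 5.99e-06; n = 3 per group), and it ranged from 8.95 to 9.84 when single arrays were left out. With normexp background correction it was 7.35. The next gene on 1 side, *Herc3*, had a log2 fold change of 0.73, and *Nap1l5* beyond it was at least 3.97-fold higher in IG27 cells, while the next 2 on that side were *Fam13a*, called lower (-1.25), and *Tigd2*, called higher (0.26). Of the 4 nearest genes on the other side, all vomeronasal receptors, only *Vmn1r30* could be tested (0.52).

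*Abcg2* is abundant in brain endothelial cells, so an endothelial marker list was read beside it, and a link between them was not tested. Of 8 listed genes, 4 were tested, of which *Kdr*, *Flt1* and *Slco1a4* were called higher in IG27 cells and *Pecam1* lower (log2 fold change, -0.27). Of all genes tested, 30.5% were called higher and 40.0% lower. *Kdr* and *Flt1* were dim on all WT arrays and at least 135-fold and 39.6-fold higher, and *Slco1a4*, well above background on 1 WT array, had a log2 fold change of 0.97. *Kdr*, *Flt1* and *Slco1a4* thus passed the brightness filter through the IG27 arrays alone, whereas *Pecam1* was well above background in both groups. The summed level of the list was 0.204 to 0.228 on WT arrays and 3.40 to 3.41 on IG27 arrays. It is on the linear scale, where the 75th percentile of an array is 1. On IG27 arrays *Kdr* and *Flt1* dominated the sum, at mean log2 intensities of 1.31 and -0.46, beside -2.84 for *Pecam1*. The defining junction and receptor genes *Cdh5*, *Cldn5*, *Tek* and *Emcn* did not pass the brightness filter in either group. Both groups were cultures of the OS3 glial line. In bulk RNA, expression by all cells and expression by a part of them cannot be told apart.

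The second large change was in the ABCA genes of chromosome 11. *Abca5*, *Abca6*, *Abca8a*, *Abca8b* and *Abca9* form a subgroup of close relatives that lie next to each other and are thought to handle lipids; for most of them the substrate is not settled. *Abca5*, which has been linked to lysosomes and cholesterol handling, measured -7.82, -7.77 and -7.68 on WT arrays and -0.59, -0.58 and -0.50 on IG27 arrays. It was dim on all WT arrays and at least 37.1-fold higher in IG27 cells (fitted log2 fold change, 7.20; SE, 0.0583; limma adjusted P = 3.68e-08). A bound of this kind compares the mean of the bright group with, on each array of the dim group, the higher of the spot itself and the lowest level at which any probe was well above background. Such a bound holds for the brightest probe and the main processing, and other probes or settings can lie below it. The second probe of *Abca5* was also called higher, with a log2 fold change of 3.58, below the bound of 5.21 on the log2 scale. The probes thus differed in size and not in direction.

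*Abca8a* measured -7.73, -7.49 and -8.07 on WT arrays and -2.04, -1.73 and -1.64 on IG27 arrays. *Abca8b* measured -6.08, -6.82 and -6.65 on WT arrays and -1.43, -1.42 and -1.49 on IG27 arrays. Both were dim on every WT array and bright on every complete IG27 array, at least 15.6-fold higher for *Abca8a* (limma adjusted P = 9.41e-07) and at least 20.0-fold higher for *Abca8b* (limma adjusted P = 2.36e-06). *Abca8a* and *Abca8b* are close relatives, and whether the probe of each also binds RNA of the other was not tested here.

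*Abca9* measured -5.27, -5.79 and -5.65 on WT arrays, of which 1 was well above background, and -1.27, -1.22 and -1.26 on IG27 arrays. Its log2 fold change was 4.32 (SE, 0.133; limma adjusted P = 1.14e-06). *Abca6* measured -7.79, -7.61 and -8.06 on WT arrays and -4.04, -3.96 and -3.73 on IG27 arrays, which made it at least 3.63-fold higher (limma adjusted P = 1.83e-06). Its second probe gave a log2 fold change of 2.86. All 5 genes of the cluster were dim, or nearly so, in WT cells and measurable in IG27 cells. They passed the brightness filter through the IG27 arrays alone, so this contrast is in part set by the filter. Their P values compare IG27 spots with WT spots near background. The groups did not overlap for any of the 5, beside 75.7% of all genes. With normexp background correction the increases were smaller, at a log2 fold change of 3.57 for *Abca5*, 2.36 for *Abca8a*, 2.65 for *Abca8b*, 2.54 for *Abca9* and 1.12 for *Abca6*, all still called. Those of *Abca5*, *Abca8a*, *Abca8b* and *Abca6* then lay below the bounds given above, which are 5.21, 3.96, 4.32 and 1.86 on the log2 scale.

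**Figure D3:**
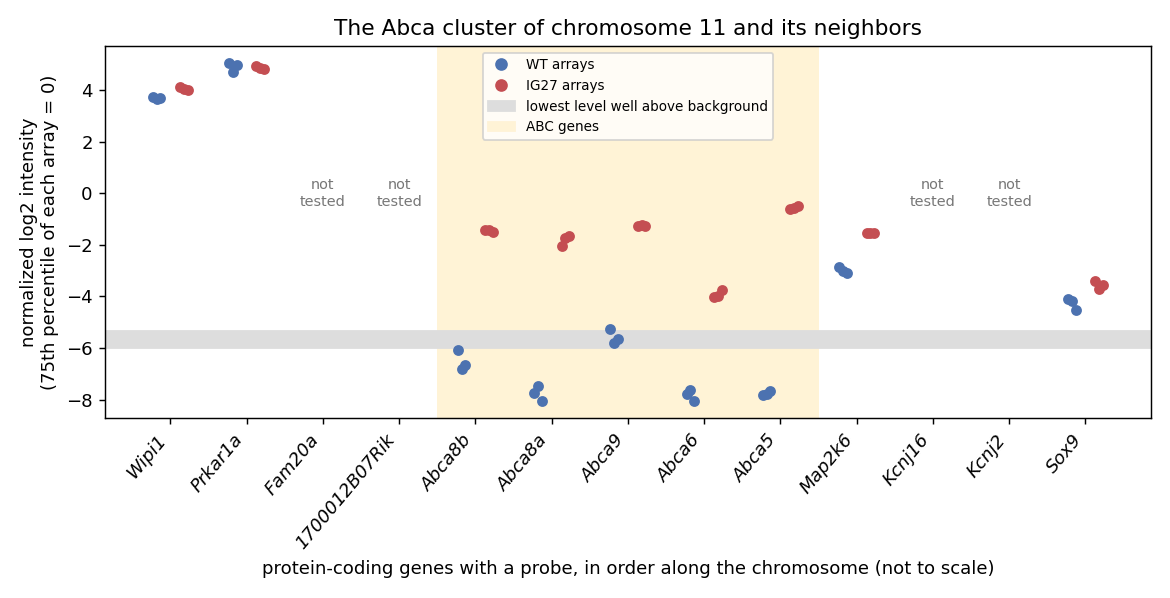
Normalized log2 intensity on each array (y axis) for the Abca cluster of chromosome 11 (shaded) and the protein-coding genes with a probe on both sides, in gene order and not to scale. WT points (blue) of the 5 Abca genes lie in or below the gray band of the lowest levels called well above background, apart from 1 *Abca9* point just above it, while IG27 points (red) all lie above it.

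The genes around the cluster had smaller log2 fold changes, a difference that was not tested. On the side of *Abca8b* the nearest genes tested, *Prkar1a* and *Wipi1*, had log2 fold changes of -0.03 (not called) and 0.37 (called higher). On the side of *Abca5*, the kinase gene *Map2k6* was higher by 1.46 and the glial transcription factor gene *Sox9* by 0.71. The other 4 neighbors shown, *Fam20a*, *1700012B07Rik*, *Kcnj16* and *Kcnj2*, were too dim to test in both groups. Fibroblasts express ABCA genes of this cluster as well. Of 8 fibroblast markers, 5 were tested, with 4 called higher and *Col1a1* lower (-0.92), beside 30.5% higher and 40.0% lower of all genes. Their summed level was 139 to 142 on WT and 131 to 138 on IG27 arrays, dominated by collagens; *Dcn*, a defining marker, was dim on all WT arrays and at least 3.32-fold higher in IG27 cells, and *Lum* was not tested. Over the marker lists of all cell types, 42 genes were tested, with 19 called higher and 16 lower. All were read in cultures of the OS3 line, and their link to the ABC values was not tested.

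Of the remaining ABCA genes, *Abca13* and *Abca4* also rose. *Abca13*, one of the longest ABC proteins, measured -4.39, -4.93 and -4.60 on WT arrays and -1.57, -1.48 and -1.54 on IG27 arrays, an 8.64-fold increase (log2 fold change, 3.11; SE, 0.136; limma adjusted P = 4.70e-06). *Abca4*, known as the retinoid flippase of photoreceptors, measured -4.63, -4.62 and -4.76 on WT arrays and -2.53, -2.52 and -2.45 on IG27 arrays, a 4.50-fold increase (log2 fold change, 2.17; SE, 0.0589; limma adjusted P = 6.94e-07). Neither gene's groups overlapped, and both were well above background in both groups. With normexp background correction the log2 fold changes were 1.92 for *Abca13* and 1.16 for *Abca4*.

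*Abca1*, the sterol and phospholipid exporter that loads apolipoproteins, was not called. It measured 2.18, 2.00 and 2.20 on WT arrays and 2.15, 2.20 and 2.20 on IG27 arrays, with overlapping groups (log2 fold change, 0.05; SE, 0.0688; limma adjusted P = 0.507). Its second probe gave 0.27 and was not called. Under quantile normalization *Abca1* was called higher (log2 fold change, 0.18; limma adjusted P = 0.0399), and over the alternatives its log2 fold change ranged from -0.19 to 0.19. *Abcg1*, which passes cholesterol on to lipoprotein particles, was not well above background on any complete array. The liver X receptor genes that drive both exporters moved in opposite directions by small amounts, with *Nr1h2* higher by 0.72 and *Nr1h3* lower (-0.38), and *Apoe*, the main lipid acceptor of the brain, was not called (0.13; limma adjusted P = 0.123). The call of *Nr1h3* (adjusted P = 0.0376) was lost in 9 alternative settings.

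*Abca2*, *Abca7* and *Abca3* fell. *Abca2*, a lysosomal lipid transporter abundant in oligodendrocytes, measured 1.91, 1.96 and 1.87 on WT arrays and 0.58, 0.69 and 0.86 on IG27 arrays. All IG27 values lay below all WT values, a 2.31-fold decrease (log2 fold change, -1.21; SE, 0.0803; limma adjusted P = 2.84e-05). The phospholipid transporter gene *Abca7* fell by 0.59 on the log2 scale, with its second probe at -0.51, and *Abca3*, needed for lung surfactant, fell by 0.31. *Abca17* was not called (-0.33), but was called lower under quantile normalization (-0.56) and with array medians as the scale (-0.57).

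**Figure D4:**
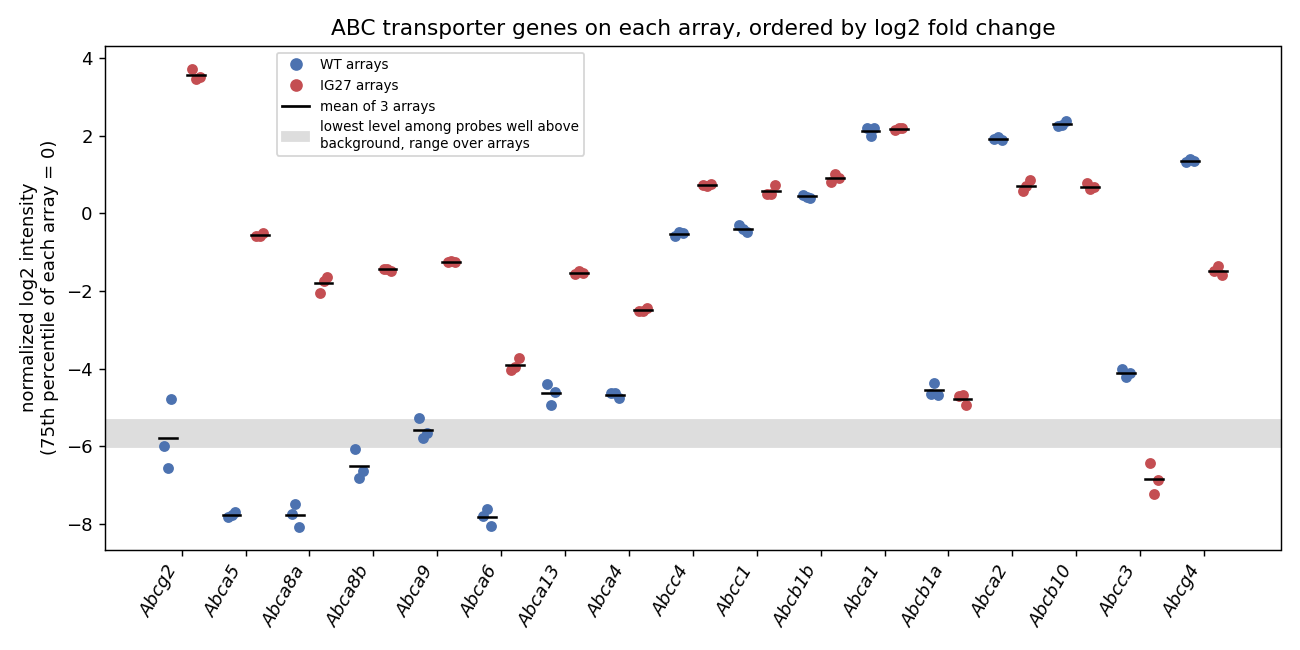
Normalized log2 intensity on each array (y axis) for the 13 ABC transporter genes that changed at least 2-fold and for *Abca1*, *Abcb1a*, *Abcb1b* and *Abcc1*, ordered by log2 fold change from *Abcg2* to *Abcg4*; black bars are group means. WT (blue) and IG27 (red) values overlap for *Abca1* alone, and the gray band is the range of the lowest levels called well above background.

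Of 12 genes whose proteins export drugs, conjugates or bile lipids, 10 were tested, of which 6 were called higher, 2 lower and 2 not called, beside 30.5% higher and 40.0% lower of all genes; this grouping was made after the values were seen. P-glycoprotein has a pair of genes in mice, of which 1 was called. *Abcb1a*, the copy used at the blood-brain barrier, measured -4.64, -4.37 and -4.67 on WT arrays and -4.70, -4.69 and -4.93 on IG27 arrays, a difference that was not called (log2 fold change, -0.21; SE, 0.108; limma adjusted P = 0.127). It was called lower under quantile normalization (-0.48), with array medians as the scale (-0.45) and with slide rows taken into account (-0.40). *Abcb1b* measured 0.46, 0.43 and 0.40 on WT arrays and 0.81, 1.01 and 0.90 on IG27 arrays, a 1.39-fold increase (log2 fold change, 0.47; SE, 0.0645; limma adjusted P = 7.63e-04), and its second probe gave a log2 fold change of 1.12. *Abcb4*, their neighbor and the phosphatidylcholine floppase of bile, was higher by 0.76. The difference between the copies was not tested, nor was binding of each other's RNA by their probes.

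Among the multidrug resistance proteins of ABCC, *Abcc4*, which exports cyclic nucleotides and prostaglandins, measured -0.58, -0.48 and -0.51 on WT arrays and 0.72, 0.70 and 0.75 on IG27 arrays. *Abcc1*, an exporter of glutathione conjugates and leukotrienes, measured -0.31, -0.40 and -0.48 on WT arrays and 0.50, 0.50 and 0.73 on IG27 arrays. Both were higher on every IG27 array than on any WT array, by 2.38-fold for *Abcc4* (log2 fold change, 1.25; SE, 0.0489; limma adjusted P = 2.96e-06) and by 1.97-fold for *Abcc1* (log2 fold change, 0.98; SE, 0.0840; limma adjusted P = 9.08e-05). *Abcc10* was higher by 0.33.

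*Abcc3*, an exporter of glucuronides and bile salts, went the other way. It measured -4.00, -4.21 and -4.11 on WT arrays and -6.42, -7.23 and -6.86 on IG27 arrays. The gene was bright on all WT arrays and dim on the complete IG27 arrays, at least 2.36-fold lower in IG27 cells (limma adjusted P = 4.43e-05). Its fitted log2 fold change was -2.73. With normexp background correction it was -0.74, a smaller decrease than the bound of 2.36-fold. *Abcc5*, which exports cyclic nucleotides and folates, fell by 0.63 on the log2 scale with its brightest probe, but its 5 probes ranged from -0.69 to 0.31, with 4 called lower and 1 not called. *Abcc6*, linked to soft-tissue calcification, was not called (0.08), and the sulfonylurea receptor genes *Abcc8* and *Abcc9* were not tested.

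*Abcg4*, a neural relative of the cholesterol exporter ABCG1, had the largest decrease among the members measured well above background in both groups. It measured 1.31, 1.41 and 1.35 on WT arrays and -1.49, -1.35 and -1.59 on IG27 arrays. The groups were widely separated, and the gene stayed well above background in both, for a 7.13-fold decrease (log2 fold change, -2.83; SE, 0.0731; limma adjusted P = 5.80e-07). Among 7 neighbors that could be tested, within 4 protein-coding genes on each side, 5 were called lower, beside 40.0% of all genes, from *Ccdc153* at -3.65 to *Hinfp* at -0.33, and 2 were not called. The sterol half-transporter gene *Abcg8* was not called (0.15) and its partner *Abcg5* was not tested, so the pair cannot be described.

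Among genes of mitochondrial transporters, *Abcb10* and *Abcb6* fell and *Abcb8* was called higher. *Abcb10*, a protein of the inner membrane needed for heme synthesis, measured 2.26, 2.28 and 2.38 on WT arrays and 0.77, 0.61 and 0.66 on IG27 arrays. Every IG27 value lay below every WT value, a 3.08-fold decrease (log2 fold change, -1.62; SE, 0.0627; limma adjusted P = 2.82e-06). *Abcb6*, which carries porphyrins, fell by 0.64 on the log2 scale. *Abcb8* was higher by 0.60 with both tested probes called, but the call was lost when the slide row was modeled (log2 fold change, 0.50; limma adjusted P = 0.0933). Of 10 listed heme and iron-sulfur genes, 2 were called higher, 4 lower and 4 not called, beside 30.5% higher and 40.0% lower of all genes, with a median log2 fold change of 0.06.

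*Abcd3*, a transporter of the peroxisome membrane that imports branched-chain and long-chain acyl-CoA, fell by 0.75 on the log2 scale. *Abcd2*, of the same membrane, was not tested. *Abcd4*, which moves vitamin B12 out of lysosomes, was higher by 0.27. Among 8 tested genes of a list of peroxisome partners, 1 was called higher and 5 lower, beside 30.5% and 40.0% of all genes, with a median log2 fold change of -0.25.

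Among the proteins with no membrane part, *Abce1*, which splits ribosomes after translation, fell by 0.67 on the log2 scale. *Abcf1* was higher by 0.36, with 5 probes between 0.29 and 0.58, and *Abcf2* by 0.34, whereas *Abcf3* was not called (0.07), but was called higher under quantile normalization (0.21). The increases of *Abcf1*, *Abcf2*, *Abcc10* and *Abcd4* depended on the scale: with array medians in place of the 75th percentile, which shifted the median of all genes by -0.24, none of the 4 was called. The antigen peptide transporter genes, which belong to ABCB although their symbols place them outside the rule, changed little: *Tap2* was higher by 0.32 and *Tap1* was not called (0.34) with its brightest probe, while its second probe was called higher (0.57). *Abcb9*, their lysosomal relative, was not called (0.02).

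The other genes of these pathways were read from a list of 80 regulators, partners and acceptors, of which 72 were tested, with 19 called higher, 33 lower and 20 not called, beside 30.5% higher and 40.0% lower of all genes. Their median log2 fold change was -0.12. Among the sensors of drugs and oxidants, *Nfe2l2*, the transcription factor that drives several ABCC genes, fell by 1.29 on the log2 scale, its inhibitor *Keap1* by 1.16, and the aryl hydrocarbon receptor gene *Ahr*, a known inducer of *Abcg2*, by 1.13. The constitutive androstane receptor gene *Nr1i3* rose by 2.19, the bile acid receptor gene *Nr1h4* by 3.63, the conjugating enzyme gene *Ugt1a6a* by 2.42, the organic cation carrier gene *Slc22a18* by 1.68 and the vault protein gene *Mvp* by 1.21. In WT cells *Ugt1a6a* was well above background on 1 array and *Nr1i3* on 2, so these sizes rest in part on dim spots.

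*Clu*, which encodes a lipid carrier, rose by 2.35. The peptide-trimming enzyme gene *Erap1* fell by 1.11, the sphingosine-1-phosphate receptor gene *S1pr1* by 1.71 and the membrane linker gene *Ezr* by 1.20. *Cftr* and the potassium channel genes *Kcnj8* and *Kcnj11*, partners of the sulfonylurea receptors, were not tested. Of 14 ABC genes not tested, *Abca12*, *Abca14*, *Abca15*, *Abca16*, *Abcb5*, *Abcb11*, *Abcc8*, *Abcc9*, *Abcc12*, *Abcd2*, *Abcg1* and *Abcg5* were not well above background on any complete array, *Abcc2* was on 1 WT array and *Abcg3* on 2 WT arrays. For these, the signal allows no statement on a difference.

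Slide position was unevenly divided, since 2 WT arrays lay in 1 row of the slide and the third lay in the other row with all IG27 arrays. Within the row that held both groups, with 1 WT array against 3 IG27 arrays and the lone array assumed to vary like the IG27 arrays, 15 members were called higher and 13 lower, and all 13 members with a change of at least 2-fold were called in the same direction. There the log2 fold change was 10.1 for *Abcg2*, 7.22 for *Abca5* and -2.89 for *Abcg4*.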

How the data were processed

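Cy3-labelled total RNA of 3 WT and 3 IG27 samples was hybridised to 1-color Agilent mouse arrays on 1 slide. The deposited intensity values are processed signals from Agilent Feature Extraction (version 9.1 per the labels, 10.7.3.1 per the file headers), background-subtracted by the authors' scanner software and not scaled between arrays. The scanner output of IG27 replicate 2 held 285 of 62976 spots, so that its column of the deposited value table, whose intensities equal the processed signals, was used; it gives no detection calls, so that calls of brightness rest on 5 complete arrays. In that table the columns of WT replicates 2 and 3 are exchanged, and scanner labels were followed. Signals were divided by the 75th percentile of each array and taken as log2, outlier spots were left out, and probes entered the fit when the scanner software called them well above background throughout the complete arrays of 1 or both groups. The brightest kept probe stood for a gene. Of 56605 probes, 32989 were matched to the RefSeq table. Groups were compared by limma 3.58.1 (R 4.3.3) with Benjamini-Hochberg adjustment; an exact permutation test of 3 against 3 cannot go below 0.1. The fit was tested on simulated data. Each array had 59305 noncontrol spots, and between 58.8% and 61.2% of probes were well above background on complete arrays; the number of arrays limits the precision. Bounds for IG27 replicate 2 used the mean lowest bright level of the other IG27 arrays. Values on every array are given for members called with at least a 2-fold change and for *Abca1*, *Abcb1a*, *Abcb1b*, *Abcc1* and *Abcg2* (the rule also names *Abcg1*, which was too dim to test); other members by fold change, and listed partners by the same size or by name. The members and lists were chosen with earlier results of these data known, and the grouping by place in the cell after values were seen. Replicate numbers did not pair samples: deviations of arrays with the same number correlated at 0.012 to 0.076. Of the members tested, 2 enter the counts and medians and are not reported singly here.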

Additional observations from a re-analysis of the deposited data

How the results depend on the processing

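Counts of ABC genes called higher and lower were 17 and 12 under most of the 18 alternatives, including with the replicate number as a block (17 and 12, since the numbers do not pair the samples) and with any single array left out (17 and 12 each time; all genes, 9797 to 10142 called). Quantile normalization gave 19 and 14, array medians 13 and 15, slide row as a block 16 and 13, and probes bright on every complete array 11 and 11 of 29. With array medians, 27.5% of all called genes were higher, beside 43.3%, and without a brightness filter the median of all genes moved by 0.18. All 13 members with at least a 2-fold change kept direction and call wherever tested, with 6 of them tested under the strict filter; normexp background correction lowered the log2 fold change to 7.35 for *Abcg2*, 3.57 for *Abca5*, 2.36 for *Abca8a*, 2.65 for *Abca8b*, 2.54 for *Abca9*, 1.92 for *Abca13*, 1.16 for *Abca4*, 1.12 for *Abca6* and -0.74 for *Abcc3*, and the cause was not tested. Genes near 0 that were not called in the main fit changed sign. Among the members, not all of these stayed uncalled with array medians, where the changed sign made any such call lower in IG27 cells. With array medians, *Abca1* gave -0.19, *Abcb9* -0.22, *Abcc6* -0.16, *Abcf3* -0.17, *Abcg8* -0.094 and *Apoe* -0.11. With slide rows, *Abcc6* gave -0.14 and *Abcg8* -0.18. *Abcc6* gave -0.18 under quantile normalization, -0.0068 under normexp and -0.11 on complete arrays. Leaving out single arrays, *Abca1* ranged from -0.012 to 0.092, *Abcb9* from -0.047 to 0.058, *Abcc6* from -0.11 to 0.21 and *Abcg8* from -0.038 to 0.31. The median of ABCG and ABCC also changed sign with array medians (-0.09 and -0.04), and that of ABCG with slide rows (-0.18). Detection of dim genes is limited by signal over background.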
